A study of Mus musculus with 8 samples.

Results

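The comparison described here set the inactive X chromosome (Xi) against the active X chromosome (Xa) inside SmcHD1 mutant (mut) mouse embryonic fibroblasts (MEFs), along chromosome X in 500 kb bins. Each allele had 1 deposited track of replication timing scores. Of 343 bins, 276 were kept. A bin was dropped where either allele carried a constant that occurred at least 20 times in its track, or a score outside −3 to 3. The 67 dropped bins comprised 28 with such a constant and 39 with an out-of-range score only. A kept bin was called later where the Xi score lay more than 0.5 below the Xa score, earlier where it lay more than 0.5 above it, and alike in between.

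In female mammals 1 X chromosome is silenced in each cell, and the silent copy replicates its DNA late in S phase as an almost uniform block, whereas the active copy alternates between early, gene-rich and late, gene-poor domains. SmcHD1 is a structural maintenance of chromosomes protein that is enriched on the Xi and contributes to its silencing and folding. Dxz4 is a repeat locus at which the folded Xi is parted into a pair of large domains. Repli-seq reads timing from DNA copy number: a locus copied early is more abundant in cells sorted from S phase than in cells sorted from G1 phase.

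The series held 8 samples, of which the 4 mut samples (2 of the G1 fraction and 2 of the S fraction) gave the mut tracks, the title G2 being read as the second G1 sample, and the 4 wt samples gave the tracks used for reference. All were female MEFs from an F2 cross of Mus musculus domesticus FVB with Mus musculus castaneus. The mut cells were the clone Mut5A6, which carries the MommeD1 mutation of SmcHD1, and the wt cells the clone Wt2A1, and fractions were sorted by flow cytometry after Hoechst staining. The Xi is the castaneus and the Xa the FVB chromosome in both clones according to the study and the names of the tracks, whereas the sample descriptions write Xa for both chromosomes, and the sign of every difference rests on this reading. It follows that allele and strain cannot be told apart, nor can genotype and clone. Each allele had a single score per bin for its 2 replicates, and how these were combined is not given in the sources used here. Read counts were not part of the scores, and the depth per bin is therefore unknown. All SDs below are over bins, no value has an error between replicates, and no test between samples was possible. Protein-coding genes were taken from GENCODE M21 on GRCm38, the build of the scores, and assigned to the bin that held their start.

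On the deposited scores the mut Xi lay below the mut Xa in most bins, and by more than 0.5 in fewer than that. The Xi score was −0.834 ± 0.981 (mean ± SD over 276 bins, median −0.93), and the Xa score was −0.381 ± 0.999 (median −0.39). The difference Xi minus Xa was −0.453 ± 1.07, with a median of −0.464, quartiles of −1.10 and 0.148, and a range from −4.65 to 2.93. It was below 0 in 190 bins (68.8%). By class, 134 bins were later (48.6%), 99 were alike (35.9%) and 43 were earlier (15.6%). The Xa score exceeded 0, the side of early replication, in 96 bins, and the Xi score in 49.

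The zero point of each track bears on these shares. Each Z-score was centred by the authors over bins that the sources used here do not name, and the median of the Xi track lay 0.54 below that of the Xa track. With each track centred on its own median, 26.8% of bins were later, 41.3% alike and 31.9% earlier. The general lateness of the mut Xi thus depends on the deposited zero points, whereas centring shifts all bins equally and leaves the differences between regions of the chromosome as they were. The scale of each track was set by the authors in the same unnamed way. Where SDs or contrasts between groups of bins are given for different tracks side by side, their relative size rests on that scale as well. Below, region values are given as deposited, and values after centring are named as such.

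Unreliable stretches also weighed on the earlier class. Where at least 3 of 11 neighbouring bins had been dropped (chrX 0 to 6.5 Mb, then 22 to 48, 111.5 to 119, 122.5 to 134 and 149.5 to 151 Mb), the 46 bins that were kept comprised 21 later, 7 alike and 18 earlier bins. In the 230 bins elsewhere, 113 were later (49.1%), 92 alike (40%) and 25 earlier (10.9%). These stretches also held 7 of the 10 most extreme single bins. The lowest was at 42.5 to 43 Mb (Sh2d1a, an adaptor of lymphocyte signalling; −4.65), followed by 42 to 42.5 Mb (Xiap, an inhibitor of caspases, and Stag2, a cohesin subunit; −3.95). The highest was at 121.5 to 122 Mb (no protein-coding gene start; 2.93), followed by 113 to 113.5 Mb (Chm and Dach2; 2.77). Of the 10 bins, those at 52, 121.5 and 122 Mb lay outside the stretches.

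**Figure D1:**
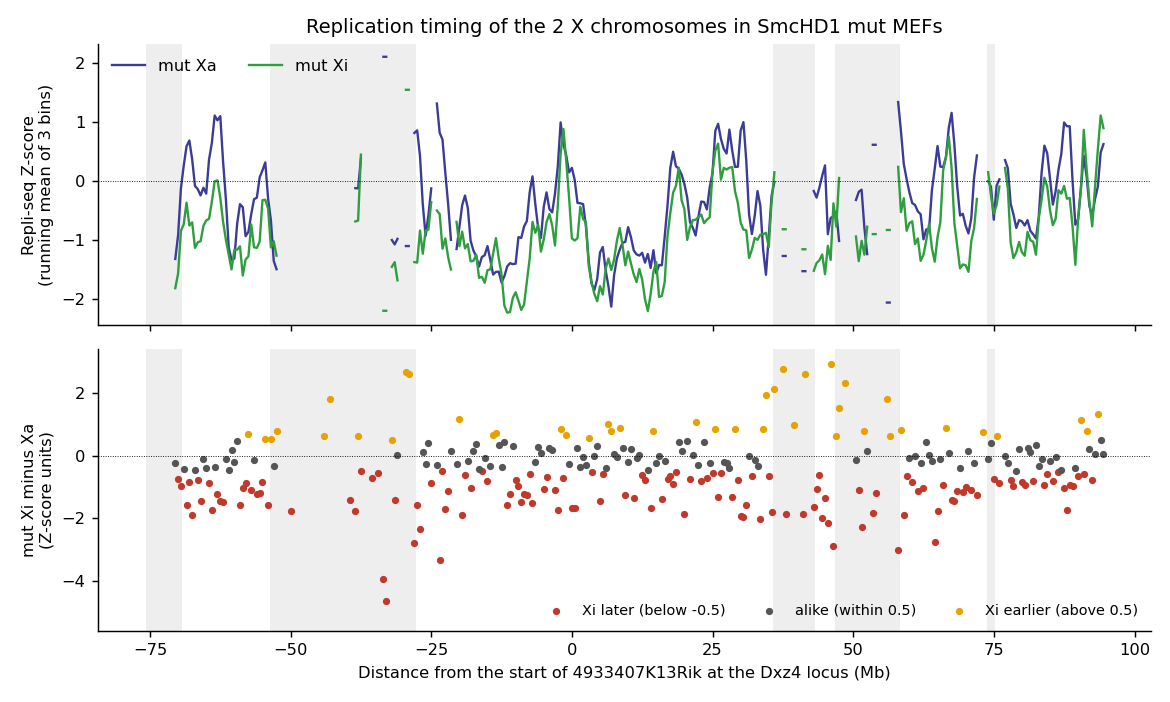
Upper panel, mut Xa and mut Xi Z-scores (running mean of 3 bins) along chromosome X, given as distance in Mb from the gene 4933407K13Rik at Dxz4; lower panel, Xi minus Xa of each of the 276 kept bins, coloured by class. Grey bands mark stretches with many dropped bins, where 18 of 46 bins were earlier, against 25 of 230 elsewhere.

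The scores of the mut alleles went together across bins in part. Pearson's r between mut Xi and mut Xa across the 276 bins was 0.420 (Spearman's rho 0.443). It was 0.546 across the 230 bins outside the stretches with many dropped bins and 0.133 across the 46 bins within them. Over the 269 bins kept in all 4 tracks, r was 0.435 in mut and 0.210 in wt. These are descriptions over bins that share libraries and domains.

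Most bins in which the alleles replicated alike were late on both. Among the 99 alike bins, 79 had both scores below 0, 14 had both above 0 and 6 had scores of opposite sign. The wt scores did not enter the mut classes. However, the kinds were split by the sign of the mut scores, Xa included, which favours a wider wt gap in the early bins. The wt Xa averaged 0.811 in the early and −0.582 in the late kind, and the wt Xi −0.610 and −0.958. In the bins alike and late, wt Xi minus Xa averaged −0.38 (78 bins with wt scores), and 29.1% had no protein-coding gene start. In the bins alike and early, it averaged −1.42 (13 bins), and none of the 14 lacked a gene start. The bin at 170 to 170.5 Mb, 1 of the 14, has 95.5% undetermined bases in the assembly, and its wt scores of 5.23 and 3.79 were out of range. On average the wt Xi thus lagged well behind the wt Xa in the shared early bins, and lay closer to it in the shared late bins.

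The 14 shared early bins included both bins of the X-inactivation centre, that of Col4a5 and Col4a6, which encode basement membrane collagen chains, and that of Rps6ka3, a growth factor signalling kinase. In the Col4a5 and Col4a6 bin the mut scores were 0.569 for Xi and 0.670 for Xa, whereas the wt Xi score was −0.689 and the wt Xa score 2.30. The bin of Tmem164 and Ammecr1, at 142.5 to 143 Mb, was 1.25 on the mut Xi and 1.18 on the mut Xa, against −0.991 on the wt Xi. At 162.5 to 163 Mb, where Rbbp7, a histone-binding subunit of several chromatin complexes, starts with 5 other genes, the mut Xi score was 0.401, the mut Xa score 0.872 and the wt Xi score −1.32. These bins were chosen for a mut Xi score above 0, and in the collagen, Ammecr1 and Rbbp7 bins the wt Xi score was below 0. In both bins of the X-inactivation centre and in the Mid1 bin the wt Xi score was above 0 as well.

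**Figure D2:**
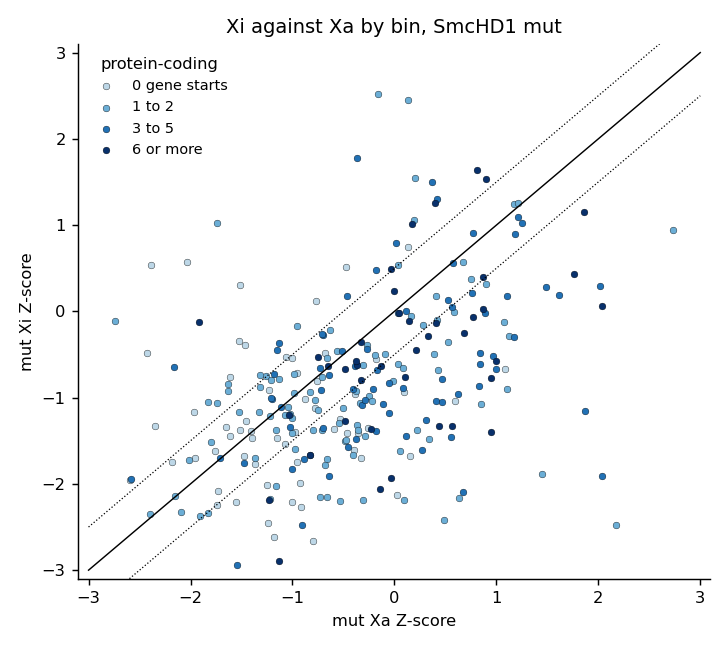
The mut Xi Z-score (vertical) against the mut Xa Z-score (horizontal) for the 276 kept bins, shaded by the number of protein-coding gene starts; the solid line is equality and the dotted lines lie 0.5 either side. Of 96 bins early on Xa, 37 were also early on Xi (score above 0), and 168 bins were late on both.

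The mut difference Xi minus Xa was not shared between neighbouring bins, in contrast to the wt difference. Over bins kept in all 4 tracks, its correlation between bins 0.5 Mb apart was −0.0285 in mut (243 pairs) and 0.567 in wt. Outside the stretches with many dropped bins the values were −0.0292 (220 pairs) and 0.585. Subtraction removes whatever pattern the alleles of a genotype share, and r between the alleles was 0.435 in mut and 0.210 in wt. The part of this in the contrast was not tested. In the separate tracks neighbouring bins did go together: r was 0.513 for mut Xa and 0.237 for mut Xi, against 0.584 for wt Xa and 0.216 for wt Xi. At 1 Mb it was 0.280 for mut Xa, 0.263 for mut Xi, 0.394 for wt Xa and 0.0214 for wt Xi. At 2 Mb it was 0.0504 for mut Xi and −0.0627 for wt Xi. The departure of a bin from the mean of its neighbours had an SD of 0.947 for mut Xi, 0.723 for mut Xa and 1.13 for their difference (233 bins), about as large as the SD of the difference over all bins. A single bin's class therefore rests on 1 value with a bin-to-bin spread larger than the 0.5 limit, and the regions below are described by their means. How far measurement error and true local differences each enter this spread was not tested.

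**Figure D3:**
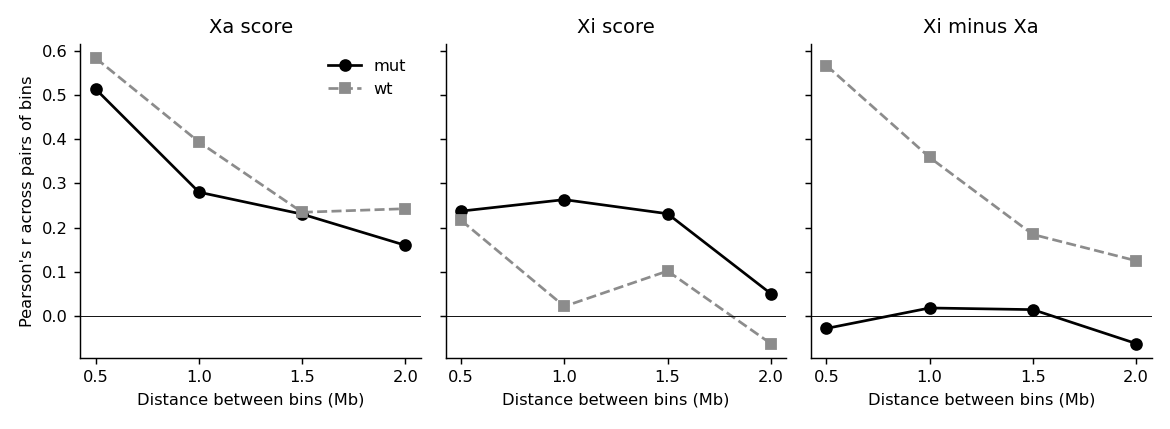
Pearson's r between bins 0.5, 1, 1.5 and 2 Mb apart for the Xa score, the Xi score and Xi minus Xa, in mut (black) and wt (grey), over bins kept in all 4 tracks. At 0.5 Mb, Xi minus Xa reached 0.567 in wt and −0.0285 in mut.

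Gene content went with timing on both mut alleles, more weakly on Xi. In the 60 bins without a protein-coding gene start the mean score was −1.07 for mut Xa and −1.22 for mut Xi. In the 41 bins with at least 6 starts it was 0.141 and −0.457. The wt Xi had nearly the same mean in both groups, −0.987 and −0.935. The mut difference Xi minus Xa was −0.156 without gene starts, −0.446 with 1 to 2, −0.620 with 3 to 5 and −0.598 with 6 or more, and the later class took 38.3%, 47%, 54.7% and 56.1% of bins. The mut Xi thus scored earlier in gene-rich than in gene-poor bins but by less than the Xa did.

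Base composition followed the same order. Spearman's rho with GC content was 0.539 for mut Xa, 0.397 for mut Xi and −0.145 for their difference, and with the share of bases in annotated repeats −0.468, −0.301 and 0.144. The 43 earlier bins had the highest median repeat content, 50.0%, against 42.6% in later and 43.6% in alike bins, and 32.6% of them had no gene start, against 17.2% and 23.2%. Repeat content also bears on where reads can be placed, and its part in the class was not tested.

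**Figure D4:**
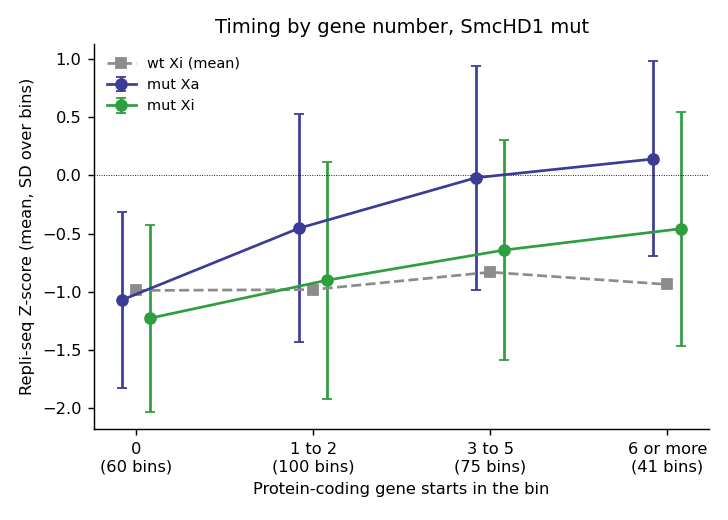
Mean Z-score of mut Xa and mut Xi (bars, SD over bins) and mean of wt Xi, by the number of protein-coding gene starts in the bin. From 0 to 6 or more starts, mut Xa went from −1.07 to 0.141 and mut Xi from −1.22 to −0.457, while wt Xi stayed between −0.987 and −0.830.

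The domains that replicate early on a normal Xa were then taken one by one. They were drawn on the wt Xa track, which is no part of the mut difference, as 3 or more neighbouring bins whose running mean of 3 bins was above 0. This gave 19 domains with 102 kept bins. The mean mut Xa score was above 0 in 14 of the domains and the mean mut Xi score in 3, whereas the wt Xi mean was above 0 in 1. As deposited, the mut Xi mean exceeded the wt Xi mean in 17 of 19 domains. Over the bins inside the domains the mut Xi averaged −0.376 and the wt Xi −0.859. Outside them the order was the other way, −1.10 (174 bins) and −0.980 (167 bins). Zero point and scale of both tracks are unnamed, and mut Xi was not set against wt Xi after centring. By their mean difference, 11 domains were later on the mut Xi, 7 alike and 1 earlier, and in wt all 19 were later, which the choice on wt Xa favours. With the tracks centred on their medians, the mut domains were 3 later, 13 alike and 3 earlier. Xi minus Xa over domains ran from −1.85 to 0.628 (median −0.718) in mut and from −2.31 to −1.05 (median −1.59) in wt.

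**Figure D5:**
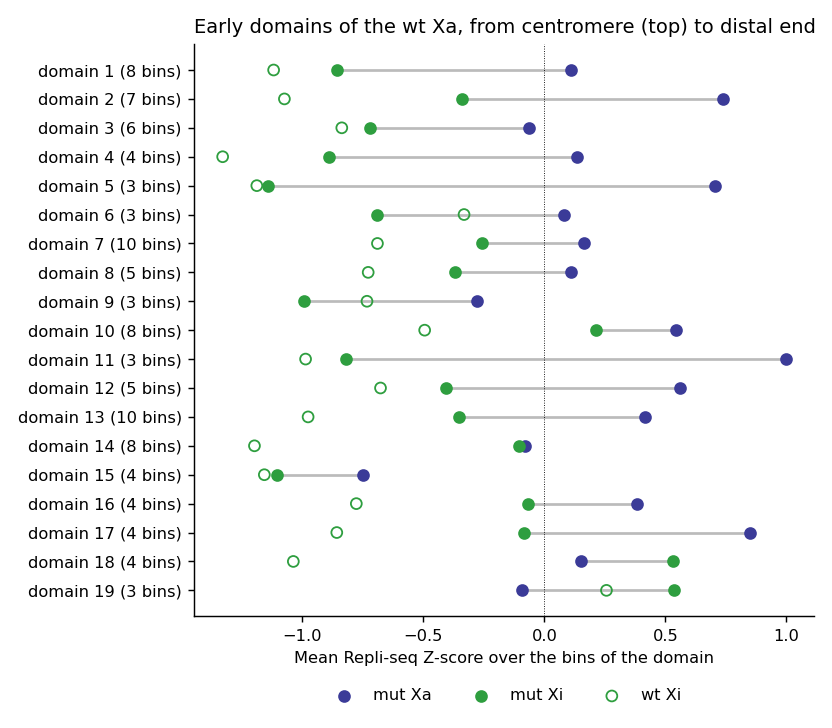
Mean Z-score of mut Xa, mut Xi and wt Xi in the 19 early domains of the wt Xa, ordered along the chromosome, with the number of kept bins. As deposited, mut Xi lay to the right of wt Xi in 17 domains, and to the right of mut Xa in domains 18 and 19 only. Over bins outside the domains the mut Xi mean was the lower one, −1.10 against −0.980 for wt Xi.

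The alleles stayed furthest apart in 2 of these domains, both of 3 bins. At 105.5 to 107 Mb (chrX:105500001-107000000, GRCm38) lie Atrx, a chromatin remodeller, Pgk1, a glycolytic enzyme, and Atp7a, a copper transporter. The 3 bins scored 0.848, 2.03 and 0.118 on the mut Xa and −1.07, 0.0586 and −1.45 on the mut Xi. The difference was −1.82 ± 0.223, each bin being between −1.97 and −1.56, close to the wt mean of −1.91. At 52 to 53.5 Mb, the domain of Hprt, a purine salvage enzyme, Phf6, a chromatin protein, and the glypicans Gpc3 and Gpc4, the difference was −1.85 ± 1.42. Its bins differed more widely, with −3.34 at Gpc4, −0.507 at Gpc3, Phf6 and Hprt and −1.70 in the distal bin. In these domains the mut Xi means, −0.820 and −1.14, were close to those of the wt Xi, −0.986 and −1.19, and both stayed later after centring, at −1.28 and −1.31.

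The proximal end held a further pair of later domains. At 10.5 to 14 Mb, with the RNA helicase gene Ddx3x, the scaffold kinase gene Cask, the corepressor gene Bcor and the deubiquitinase gene Usp9x, the mut Xa averaged 0.736 and the mut Xi −0.341. The difference of −1.08 ± 0.545 (7 bins) stood against wt means of −1.07 for Xi and 0.930 for Xa. From 5.5 to 9.5 Mb, where 73 protein-coding genes start, among them those of the Ssxb family, it was −0.965 ± 0.515 (8 bins) against −1.81 in wt. Both domains had 2 alike bins and no earlier one. As deposited, the Xi scored below the Xa in every bin of both, with differences between −1.89 and −0.377. After centring, the first domain was later by its mean (−0.537) and the second alike (−0.425). Differences of similar size but wider spread were found at 46.5 to 49 Mb (−1.03 ± 2.47, 4 bins), where Utp14a lies, and at 133.5 to 136 Mb (−0.965 ± 1.52, 5 bins), with the Armcx genes.

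As deposited, the alleles lay closest in the domain at 148.5 to 153.5 Mb, whose genes include Huwe1, a ubiquitin ligase, the melanoma antigen family members Maged2 and Mageh1, and the cohesin and demethylase genes Smc1a and Kdm5c. Over 8 kept bins the mean was −0.0803 for mut Xa and −0.103 for mut Xi, a difference of −0.0224 ± 0.607, against −1.64 in wt. The bins ranged from −0.881, at Huwe1, to 0.768, and comprised 2 later, 4 alike and 2 earlier ones. The bin of Smc1a and Kdm5c was dropped, with an Xi score of 3.20, and 3 bins of the domain lay in a stretch with many dropped bins. The mean of the mut Xa was itself below 0 there, against 0.447 for the wt Xa, and the wt Xi stood at −1.20. After centring, the difference in this domain was 0.517, and the domain nearest to 0 was that at 92.5 to 95 Mb (0.0631), with Zfx, Eif2s3x and Pola1.

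The domain at 100 to 104 Mb, which ends in the X-inactivation centre, had a positive mean on both alleles. From proximal to distal, its 8 bins scored −0.636, −0.138, 1.25, 0.431, 0.218, −0.572, 1.03 and 0.135 on the mut Xi. On the mut Xa they scored −0.388, 0.410, 0.395, 1.76, 0.759, −0.374, 1.26 and 0.522. The means were 0.215 and 0.542, and the difference was −0.327 ± 0.602, against −1.59 in wt. The 2 alleles rose and fell together over most of the domain, and the Xi score exceeded the Xa score in 1 bin, at 101 to 101.5 Mb.

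In the distal-most domains the mut Xi scored above the mut Xa, as deposited and after centring (0.920 and 1.17). At 166 to 168 Mb lie Tmsb4x, which encodes an actin-sequestering thymosin, Ofd1, a centriole gene, and Tlr7 and Tlr8, receptors for single-stranded RNA. Its 4 bins scored 1.49, 0.321, 0.791 and −0.478 on the mut Xi and 0.368, 0.898, 0.0173 and −0.676 on the mut Xa. The mean difference was 0.380 ± 0.744, against −1.47 in wt, where Xi averaged −1.04 and Xa 0.433. At 168.5 to 170 Mb, with Frmpd4, Hccs, Amelx and the escape gene Mid1, a microtubule-associated ubiquitin ligase, it was 0.628 ± 0.656 (3 bins), against −1.05 in wt. These 3 bins scored −0.464, 1.54 and 0.533 on the mut Xi and −0.513, 0.203 and 0.0382 on the mut Xa. In wt, Xi averaged 0.257 and Xa 1.31 in this last domain, so that the wt Xi was already above 0. The Xa score differed more between genotypes than the Xi score, but the domains were drawn on high wt Xa scores, which favours this. Over the 102 bins of all early domains, Xa averaged 0.733 in wt and 0.253 in mut. In each of the distal-most domains 1 or 2 bins carried the excess, and the spread over bins was as large as the mean.

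Inside the early domains as a whole the mut Xa averaged 0.253 and the mut Xi −0.376 (102 bins), and outside them −0.753 and −1.10 (174 bins). The mut Xi thus scored higher inside than outside by 0.726, against 1.01 for the mut Xa and 0.121 for the wt Xi. Xi minus Xa was −0.630 inside and −0.349 outside, and 56.9% against 43.7% of bins were later. After centring the means were −0.0898 inside and 0.191 outside, so that which bins held the alleles closer together depends on the zero points.

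Runs of bins of one class were also drawn along the whole chromosome, inside and outside these domains, after a running mean of 3 bins. A run was at least 4 neighbouring bins (2 Mb). As deposited, there were 13 later runs with 76 bins, 10 alike runs with 64 bins and no earlier run. With the tracks centred on their medians, a setting added after the values were seen, there were 2 later runs with 9 bins, 21 alike runs with 133 bins and 4 earlier runs with 20 bins. The earlier runs then lay at 61.5 to 63.5 Mb, at 81.5 to 85 Mb, where Dmd starts and which takes in part of the longest alike run below, and distally at 165.5 to 168 and 168.5 to 170.5 Mb. The last of these takes in the bin at 170 to 170.5 Mb, with 95.5% undetermined bases. The later runs lay at 51.5 to 53.5 Mb, at Hprt, and at 118.5 to 121 Mb. The runs below are those of the deposited scores. Since the running mean lets neighbours share bins, it gave them a correlation of 0.789 by construction, and the number of runs is not a measure of domain structure. As deposited, the 3 longest stretches with the Xi earlier were 2 bins each, at 46 to 47, 131.5 to 132.5 and 169 to 170 Mb, and only the last lay outside the stretches with many dropped bins.

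Of the 6 longest alike runs, 4 lay in inner parts of the chromosome, and all 6 had a mean below 0 on both alleles. The longest, at 83 to 88.5 Mb, held Il1rapl1, a synaptic adhesion gene, Gk, the glycerol kinase gene, and Nr0b1, an orphan nuclear receptor gene. Its means were −1.17 for mut Xa and −1.37 for mut Xi, a difference of −0.193 ± 0.656 (11 bins). The run at 57.5 to 62 Mb, with Fgf13, averaged −1.26 and −1.49 (9 bins), and that at 77 to 80.5 Mb, with Tbl1x and Prkx, −1.15 and −1.20 (7 bins). The run at 96.5 to 100 Mb, with Eda, a skin appendage ligand, and Efnb1, averaged −0.534 and −0.677. By their own values 3 of its 7 bins were alike, 3 later and 1 earlier. The other two were distal. The run at 156.5 to 159.5 Mb held Phex, Sms and Rps6ka3. Its mut means were −0.719 for Xa and −0.816 for Xi, and its wt means 0.225 and −1.09. As deposited, the Xa score thus differed more than the Xi score between the genotypes, which rests on the unnamed zero points. At 165.5 to 169 Mb the mut means were −0.293 for Xa and −0.273 for Xi, and the wt means 0.121 and −1.07. The mean difference there was 0.0208 ± 0.737 (7 bins), but by their own values only 2 bins were alike, 3 later and 2 earlier. This run overlaps the distal-most domains, in which the mut Xi scored above the mut Xa.

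Of the 6 longest later runs, those at 5.5 to 10.5 and 11 to 14.5 Mb repeat the proximal domains. The run at 66 to 69 Mb, with the synaptic gene Slitrk2, was late on Xa (−0.573) and later still on Xi (−1.74), and its difference of −1.17 ± 0.357 (6 bins) was larger than that of wt, −0.31. The run at 143 to 146.5 Mb, with the neuronal genes Dcx and Pak3, the ion channel gene Trpc5 and Amot, differed by −0.915 ± 0.586 (7 bins). That at 51.5 to 54.5 Mb, around Gpc3, Phf6 and Hprt, differed by −1.14 ± 1.26 (6 bins), and that at 91 to 94 Mb, with Pola1, the catalytic subunit of DNA polymerase alpha, by −0.642 ± 0.507 (6 bins). Another run of 6 bins, at 162.5 to 165.5 Mb with Car5b, differed by −0.922 ± 0.478 and is not among the 6 only because ties went to the lower start.

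On either side of Dxz4, marked by the gene 4933407K13Rik at 75.7 Mb, the difference was −0.588 ± 1.10 proximally (107 bins) and −0.360 ± 1.04 distally (168 bins). Outside the stretches with many dropped bins the values were −0.610 ± 0.826 (84 bins) and −0.423 ± 0.881 (145 bins). The proximal mean was the lower one with both sets of bins, and no test of the difference was made. In windows of 10 Mb, the lowest mean was −0.940, in the first 10 Mb. The highest was 0.0770, between 110 and 120 Mb, where the SD over 12 bins was 1.88.

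Gene lists were read by the bins that held their gene starts, and each count stands against the 48.6% of all kept bins that were later, 35.9% alike and 15.6% earlier. Of 14 bins with housekeeping genes, 12 were later, 1 was alike and 1 earlier, with a median Xi minus Xa of −0.770 against −0.464 over all bins. After centring, 5 were later and 8 alike, against 26.8% and 41.3% of all bins. Pgk1 had the lowest value of the list, −1.97, with an Xa score of 2.03 and an Xi score of 0.0586. Las1l, a ribosome biogenesis gene, differed by a similar amount (−1.60 on Xi and 0.270 on Xa), as did Gla, a lysosomal galactosidase gene, which was below 0 on both alleles (−2.06 and −0.146). The difference was smaller at Rps4x, a ribosomal protein gene (0.218 and 0.759), and at Pdha1, a subunit gene of pyruvate dehydrogenase (−0.0103 and 0.585). The alike bin held Rbmx, a splicing factor gene, and the earlier one Idh3g. Several later bins lay close to the limit, among them those of Phf6 and Hprt (−0.507), of Zfx (−0.513) and of Rps4x (−0.541). in bins with 6 or more protein-coding gene starts, 56.1% were later.

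Escape genes are expressed from the Xi in normal cells. Their 10 kept bins comprised 6 later, 3 alike and 1 earlier, with a median of −0.644. The earlier bin was that of Kdm6a, a histone demethylase gene, where the Xi score was −0.446 and the Xa score −1.15, so that both alleles were late. The alike bins were those of Xist with Jpx, of Ftx and of Mid1. Ddx3x (−0.614 on Xi and 0.844 on Xa), Utp14a (difference −1.57), Eif2s3x, a translation initiation factor gene (0.0541 and 0.567), Firre (−0.488 and 0.388), Car5b (−0.248 and 0.679) and Pbdc1 (−1.09 and −0.313) had the Xi later. After centring, 2 of the 10 bins were later, 6 alike and 2 earlier.

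Both bins of the X-inactivation centre were alike and early. The bin with Xist, the RNA that coats the Xi, and its antisense partner Tsix scored 1.03 on the mut Xi and 1.26 on the mut Xa, a difference of −0.228 against −0.936 in wt. The bin with Ftx and Rlim, a ubiquitin ligase gene that acts on Xist expression, scored 0.135 and 0.522. These bins were also early on the wt Xi, at 0.443 and 0.454.

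Bins of genes typical of fibroblasts were 10 later, 4 alike and 1 earlier of 15, with a median of −0.696. Prps1, which makes the nucleotide precursor phosphoribosyl pyrophosphate, had the lowest value, −2.77 (−2.09 on Xi and 0.673 on Xa). Tsc22d3, a glucocorticoid-induced gene in the next bin, stood at −1.77, and Bgn, which encodes the matrix proteoglycan biglycan, at −1.73. The bin of Col4a5 and Col4a6, the neighbour of that of Tsc22d3, stood at −0.101, and Tmsb4x at 0.774. Prps1, Tsc22d3 and the collagen genes occupy successive bins within 1.5 Mb, so that most of the range of the list was spanned by neighbours. After centring, 3 of the 15 bins were later, 8 alike and 4 earlier.

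The 12 kept bins of a list drawn up as long genes were 7 later, 3 alike and 2 earlier, with a median of −0.506. After centring, 3 were later, 6 alike and 3 earlier. Dmd, the dystrophin gene, was late on both alleles and scored −0.838 on the Xi and −1.63 on the Xa at its start. Il1rapl1 scored −1.60 and −0.978, and Il1rapl2 −1.38 and −1.16. Aff2 was alike, at −0.0528 and 0.164, and Pcdh19, a protocadherin gene that is in fact shorter than Atrx, stood furthest in the later direction (−3.02), in a stretch with many dropped bins. Dach2 stood furthest in the earlier direction (2.77, with 1.03 on the Xi and −1.74 on the Xa), likewise in such a stretch. The class of these genes was assigned at the start of each gene, and other bins of the same gene can differ.

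Germline and reproductive gene families, including the Rhox, Mage, Xlr and Ssx genes, covered 37 kept bins, of which 18 were later, 13 alike and 6 earlier. These shares, 48.6%, 35.1% and 16.2%, were near those of all bins, as was the median of −0.493. After centring, 9 were later, 16 alike and 12 earlier. The Tceal and Bex cluster with its Armcx and Gprasp neighbours covered 5 bins, of which 3 were later and 2 alike, with a median of −0.662. After centring, 1 was later, 3 were alike and 1 was earlier.

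Set beside wt in the same 269 bins, the mut classes were 131 later, 97 alike and 41 earlier, against 144, 93 and 32. Of the 144 bins later in wt, 83 were later in mut, 43 alike and 18 earlier. Of the 93 bins alike in wt, 45 were alike in mut, 32 later and 16 earlier. The mean difference was −0.454 (SD 1.03) in mut and −0.684 (SD 1.15) in wt. No test of these differences was possible with 1 clone and 1 track for each genotype.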

How the data were processed

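The deposited values were Z-scores of the S/G1 read ratio in 500 kb bins of chromosome X, one score per allele and genotype, with higher scores for earlier replication. According to the methods, the authors sorted G1 and S fractions of asynchronous MEFs, aligned the reads, split them by parental genome and scaled by read number. The submitters' processing notes name Bowtie2 and mm10. How replicates were combined into one track, software versions, and the bins over which each Z-score was centred, are not given in the sources used here. SNP density and mappability differ between bins, so the depth behind scores varies by an unknown amount.

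Here the mut Xi and Xa scores were joined by bin start, filtered and subtracted, with Python 3.11.15, numpy 2.4.6, pandas 2.3.3, scipy 1.17.1 and matplotlib 3.10.9. The last bin ended at the length of chromosome X in GRCm38. A run was 4 or more neighbouring kept bins of one class on the running mean of 3 bins, with at least 2 of the 3 kept. Described were up to 6 longest runs per class, the 5 lowest and 5 highest bins, list genes by the bin of their start, and up to 8 genes per run, list genes first and then the longest. The bins, classes, domains and lists were chosen with earlier results of these data known. The steps were tested on simulated data. The deposited tracks of reads from both alleles together were not used.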

Additional observations from a re-analysis of the deposited data

How the results depend on the processing

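For 7 results, 61 alternatives were run, of which 40 left the value near the reported one, 18 moved it and 3 reversed a mean, a correlation or a difference. With a limit of 0.25 for alike bins, 20.7% were alike, 57.6% later and 21.7% earlier, and with a limit of 1, 65.9%, 28.3% and 5.80%. With a running mean of 3 bins, 50.6% were alike and 3.75% earlier, and with 1 Mb bins 48% and 5.6%. Without the stretches with many dropped bins 10.9% were earlier. With each track centred on its median, 26.8% were later and 31.9% earlier and the mean of Xi minus Xa was 0.0871, since centring removes most of the offset by construction. With tracks scaled to an SD of 1, 30.4% were later and 28.3% earlier, and the mean is 0 by construction and was not used. Without the limit on the score, the mean was −31.0, the correlation of Xi with Xa −0.00791, the difference inside minus outside early domains 45.5 and the correlation of neighbouring differences −0.481, because scores of up to 11556 entered. The alternatives for that correlation were chosen after seeing the data, and are not among the 3: it was 0.0272 over all kept mut bins, and also below 0 with scores from −2 to 2 (−0.0486) and without the stretches with many dropped bins (−0.0258), so its sign is not settled. The running mean took it to 0.789 because neighbours then share bins. No paired analysis was possible because each allele has a single track without separate replicates, and leaving out a replicate was not possible either.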
